A study of Mus musculus with 20 samples.

Results

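The 5 genes described here move butyrate into or out of colon cells or sense it at the cell surface, and were followed in the proximal colon (PC) of mice fed increasing amounts of resistant potato starch (RPS). They were chosen by name for these roles, and all 5 were found among the 12701 genes of the count table. They are Slc16a1, Slc5a8, Bsg, Abcg2, and Ffar2. Messenger RNA was sequenced from the PC of 20 mice of the inbred strain C57BL/6, with 1 library per mouse and 5 mice per diet. All mice were weaned onto the TWD (Total Western Diet), a rodent diet built to match the nutrient intake of Americans, and ate it for 6 weeks. They then ate the TWD with 0, 2, 5, or 10% RPS for 3 weeks, so the 0% RPS group is the TWD alone and every comparison with it shares the same 5 control libraries. RPS is uncooked potato starch, most of which reaches the large intestine undigested and feeds the bacteria there. The tissue was a whole segment of the colon wall, in which fewer cells of a type and less RNA per cell cannot be told apart.

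Butyrate is a short-chain fatty acid made when bacteria ferment fiber and starch, and it is a main fuel of the colon epithelium. As an anion it needs carriers to cross the cell membrane. Slc16a1 (MCT1) carries monocarboxylates such as butyrate and lactate together with a proton. Bsg (basigin) is the membrane partner that MCT1 needs to reach the cell surface. Slc5a8 (SMCT1) carries butyrate together with sodium at the luminal face of colonocytes, and has been studied as a gene that is often silenced in colon cancer. Abcg2 (BCRP) is an efflux pump that moves many compounds out of cells and has been linked to butyrate efflux. Ffar2 (GPR43) is a G protein-coupled receptor for short-chain fatty acids on epithelial, enteroendocrine, and immune cells. Inside cells, butyrate is oxidized in mitochondria, and what is not oxidized inhibits histone deacetylases.

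The libraries held 20581013 to 35083751 counts, and the lowest raw count of any of the 5 genes in any library was 540, far above the 3 counts taken as the detection floor. Counts divided by the DESeq2 size factor of their library are called normalised counts. A control library, 0% RPS replicate 2, stood apart in genes that mark position along the colon: Hoxa13 had 1024 normalised counts there and 34.5 to 198 in the other libraries, and Hoxd10 had 67.7 there and 339 or more elsewhere. In addition, 3 libraries have label numbers outside the run of the other 17, namely 2% RPS replicate 5 and 10% RPS replicates 4 and 5. What these numbers stand for is not given in the sources used here. Results are given with and without these libraries where that matters.

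The carriers Slc5a8 and Slc16a1 are the genes on which the results turn, so the 250 bases before the start of their canonical transcripts are shown, from GRCm39 with GENCODE M39 transcript starts. Slc5a8 (ENSMUSG00000020062) lies on chromosome 10 (88721766 to 88765377, plus strand) and the stretch is chr10:88721516-88721765. Slc16a1 (ENSMUSG00000032902) lies on chromosome 3 (104545811 to 104565780, plus strand) and the stretch is chr3:104545561-104545810. Capitals mark matches to 5 motifs, searched on both strands. The GC box, bound by factors of the Sp family, was searched as GGGCGG. The TATA box, bound by the TATA-binding protein, was searched as TATAAA. The E-box, bound by MYC and related factors, was searched as CACGTG. The CCAAT box, bound by NF-Y, was searched by the letters of its name. The core of the aryl hydrocarbon receptor motif was searched as GCGTG. No matches overlapped in the stretches shown.
Slc5a8: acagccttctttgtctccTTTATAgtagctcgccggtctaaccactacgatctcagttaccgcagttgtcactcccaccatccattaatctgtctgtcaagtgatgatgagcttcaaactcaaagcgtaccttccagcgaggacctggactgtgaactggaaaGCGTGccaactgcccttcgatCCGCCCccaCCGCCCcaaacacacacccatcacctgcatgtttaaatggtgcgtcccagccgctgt
Slc16a1: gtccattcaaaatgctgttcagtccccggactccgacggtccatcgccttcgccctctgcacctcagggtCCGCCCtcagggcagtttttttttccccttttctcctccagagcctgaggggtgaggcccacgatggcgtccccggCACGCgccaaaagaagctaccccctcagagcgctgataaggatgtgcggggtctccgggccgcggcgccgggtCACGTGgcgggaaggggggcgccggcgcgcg
The Slc5a8 stretch held 2 GC boxes, 1 TATA box, and 1 GCGTG, with 12 CpG dinucleotides and a GC content of 52.8%. Its TATA box match is in reverse orientation and near the end of the stretch farthest from the transcript start. The Slc16a1 stretch held 1 GC box, 1 E-box, and 1 GCGTG, with 25 CpG and a GC content of 66.8%. Over 12681 promoters of the table's genes, 47.61% held a GC box, 7.909% a TATA box, 7.626% the E-box, and 40.04% the GCGTG core, and the median was 12 CpG (quartiles 6 and 19). The Slc16a1 stretch was therefore above the upper quartile in CpG and that of Slc5a8 at the median. Bsg (ENSMUSG00000023175, chromosome 10, 79540143 to 79547821, plus strand) held 12 CpG and 1 CCAAT box, which 35.38% of promoters held. Abcg2 (ENSMUSG00000029802, chromosome 6, 58561505 to 58672661, plus strand) held 17 CpG and 3 GC boxes. Its stretch, chr6:58617251-58617500, precedes the canonical transcript and lies inside these gene bounds. Ffar2 (ENSMUSG00000051314, chromosome 7, 30517773 to 30536075, minus strand) held 3 CpG and 1 GC box. Its stretch, chr7:30520640-30520889, likewise lies inside the gene bounds. These matches are letters in a window and were not tied to binding of any factor.

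Slc5a8 was the only gene of the 5 to pass the adjusted p at 10% RPS and in the slope with all libraries. Its normalised counts in the 5 mice on 0% RPS were 2915, 4237, 3267, 2461, and 2841. On 2% RPS they were 3425, 3037, 2992, 3281, and 3821, which lay within the range of the controls. On 5% RPS they were 3980, 4353, 4407, 4035, and 3776, and on 10% RPS they were 3951, 4080, 4384, 4766, and 5793. Every library on 5 and 10% RPS was above 4 of the 5 control libraries. The exception was 0% RPS replicate 2, the library with the unusual Hox genes, which 2 of 5 libraries on 5% RPS and 3 of 5 on 10% RPS exceeded.

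**Figure D1:**
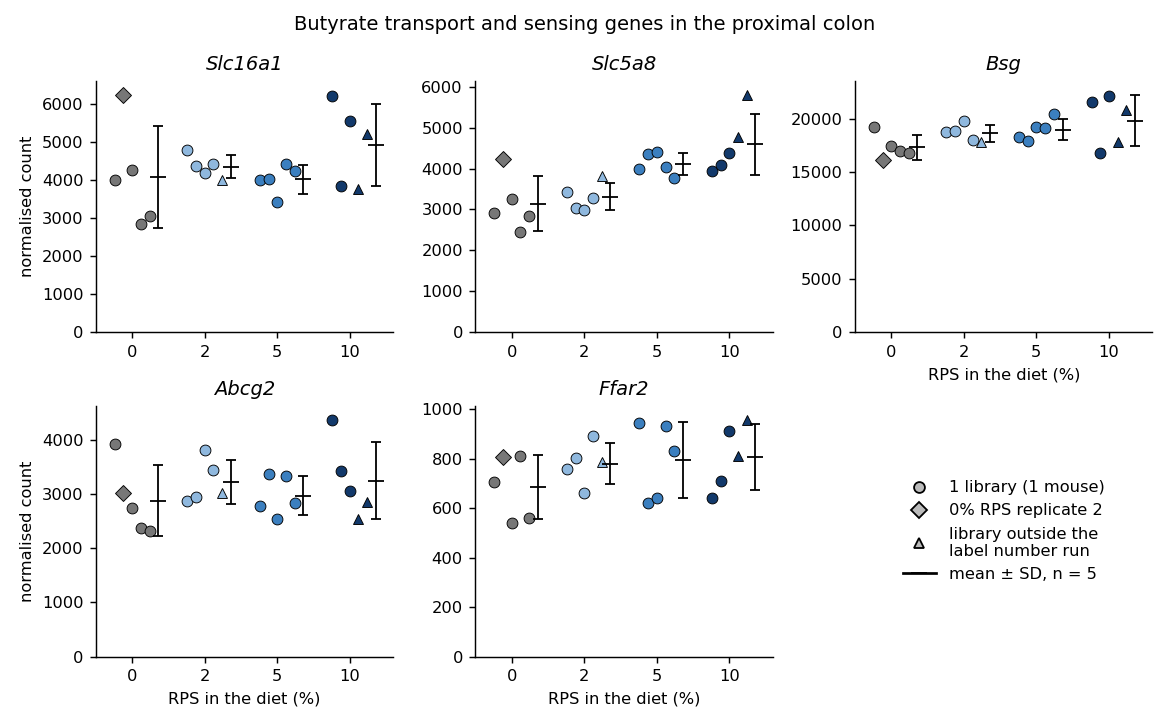
Normalised count (vertical axes, from 0) of the 5 genes in each library by the percentage of RPS in the diet (horizontal axes), with the mean and SD of each diet (n = 5) beside the points. Slc5a8 means go from 3144 on 0% RPS to 4595 on 10% RPS, and the control library marked by a diamond has the highest Slc5a8 and Slc16a1 of its diet.

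The Slc5a8 mean was 3144 ± 675 (SD, n = 5) on 0% RPS, 3311 ± 336 on 2% RPS, 4110 ± 265 on 5% RPS, and 4595 ± 740 on 10% RPS. At 10% RPS the log2 fold change was 0.55 (SE 0.13, 95% interval 0.30 to 0.79), a 1.46-fold higher level, and passed the DESeq2 test over all genes (adjusted p = 0.0019). It stayed below the fold of 1.5 that was set beside the adjusted p, so it did not count as changed under both thresholds. At this adjusted p alone, 1 of the 5 genes was called and 4.69% of the 12321 genes tested were. With the fold threshold none of the 5 was called, beside 0.917% of all genes. In edgeR, Slc5a8 at 10% RPS had an adjusted p of 0.0364, and 0.987% of genes passed.

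At the lower amounts of RPS, Slc5a8 did not pass. The log2 fold change was 0.39 (SE 0.13) at 5% RPS (DESeq2 adjusted p = 0.0749, edgeR adjusted p = 0.160) and 0.08 (SE 0.13) at 2% RPS (DESeq2 adjusted p = 0.896). For 5% RPS, 1.9% of genes passed the adjusted p and 0.438% also the fold of 1.5. For 2% RPS, 0.0239% passed with or without the fold. None of the 5 genes passed in DESeq2 or edgeR at either amount, where 1 of 5 (Slc5a8) at 5% RPS and 0 of 5 at 2% RPS had an unadjusted p under 0.05 in both tools. Of all genes, 16.6% in DESeq2 and 15.9% in edgeR were under this unadjusted p at 5% RPS, and 8.7% and 8.09% at 2% RPS.

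A line over all 4 diets used every library at once. The slope of Slc5a8 was 0.058 (SE 0.012) on the log2 scale per 1% RPS, which over 10% RPS is 0.58 or 1.49-fold (DESeq2 adjusted p = 0.00036, edgeR adjusted p = 0.0209). Of all genes, 4.29% had a slope past the adjusted p in DESeq2 and 1.34% in edgeR. Slc5a8 ranked 27 by p among the genes. With the 3 diets that held RPS alone, the slope was 0.056 (DESeq2 adjusted p = 0.0088), so the rise was also seen without the control mice. Between the diets with RPS, the log2 difference was 0.47 for 10 against 2% RPS (DESeq2 adjusted p = 0.0770, edgeR adjusted p = 0.419), 0.31 for 5 against 2% RPS (DESeq2 adjusted p = 1), and 0.16 for 10 against 5% RPS (DESeq2 adjusted p = 1). None of the 5 genes was called in these 3 comparisons by DESeq2 or edgeR, and all genes gave 0.0557%, 0%, and 0.00796% at the adjusted p and fold of 1.5. Slc5a8 alone of the 5 had an unadjusted p under 0.05 in both tools for 10 and 5 against 2% RPS, where 9% and 2.86% of all genes had in DESeq2 and 8.52% and 2.59% in edgeR, and none of the 5 had for 10 against 5% RPS (4.11% and 3.72% of all genes).

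The libraries that stood apart moved the values of Slc5a8 in opposite directions. Without 0% RPS replicate 2, the log2 fold change was 0.68 (SE 0.11, DESeq2 adjusted p = 3.99e-07) at 10% RPS and 0.52 (SE 0.11, adjusted p = 0.00085) at 5% RPS, and 10% RPS then also passed the fold of 1.5. The 3 libraries outside the number run held the highest Slc5a8 of their diets. Without them, the log2 fold change at 10% RPS was 0.40 (SE 0.13), past the test no longer (adjusted p = 0.0824), while that at 5% RPS was 0.39 (adjusted p = 0.0364). The slope without them was 0.048 (SE 0.013, adjusted p = 0.0235). The slope passed the adjusted p in each of the 28 alternatives tried, and the difference at 10% RPS in 18 of 20. Of these, 20 of the 28 and 10 of the 20 left out a single library. The alternatives share most libraries, so the counts are not independent support. At 10% RPS the difference did not pass without the 3 libraries or with a score of epithelial markers as covariate.

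Markers of the epithelium moved in the direction of Slc5a8. All 6 epithelial markers measured were higher at 10% RPS, with a median log2 fold change of 0.14, and Epcam, an adhesion protein of epithelial cells, passed the test (0.19, SE 0.05, DESeq2 adjusted p = 0.0067). The slope of Epcam also passed (0.016 per 1% RPS, DESeq2 adjusted p = 0.0230). Their summed level ranged from 269839 to 326240 normalised counts on 0% RPS and from 280257 to 368126 on 10% RPS. With the mean of these markers as a covariate, the log2 fold change of Slc5a8 was 0.41 (SE 0.14) at 10% RPS and did not pass (adjusted p = 0.170), while its slope of 0.049 did (adjusted p = 0.0111). Within each library, the log2 ratio of Slc5a8 to the summed epithelial markers was 0.42 higher on 10% than on 0% RPS (exact permutation test over 252 assignments, two-sided, p = 0.0238, adjusted over 5 ratios 0.119). In 3 of 5 libraries on 10% RPS it exceeded every control. Without the 3 libraries outside the number run this difference was 0.34 (exact permutation p = 0.107). The largest parts of the summed epithelial markers were Krt8 and Krt19, which averaged 137109 and 74559 normalised counts over all libraries. Their log2 fold changes at 10% RPS were 0.16 and 0.10, without passing. The summed level of the 6 mature colonocyte markers was 338591 ± 105635 (SD, n = 5) normalised counts on 0% RPS and 484728 ± 84611 on 10% RPS. Most of this sum was Car1, which averaged 321199 normalised counts over all libraries. Car1 did not pass at 10% RPS (0.63, SE 0.25, DESeq2 adjusted p = 0.131). Of the 6 genes, 4 were higher at 10% RPS, while Aqp8 (-0.93) and Slc26a3 (-0.43) were lower. In this list the slope of Car4, a carbonic anhydrase, passed (0.036 per 1% RPS, DESeq2 adjusted p = 0.0329), as did that of Agr2 among the goblet cell markers (0.053, DESeq2 adjusted p = 0.0358). The smooth muscle markers were lower at 10% RPS in 6 of 6 genes, none past the test, with a median of -0.20. With their score as covariate the Slc5a8 difference was 0.57 (SE 0.13, adjusted p = 0.0011). The part of tissue makeup in the Slc5a8 difference was not tested beyond these values.

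Slc5a8 overlaps a long noncoding RNA gene, Gm66637, on the opposite strand. Of the 50-base windows of its transcripts, 2.83% also occur in transcripts of that gene, and whether the counting used strand is not given in the sources used here. Such overlaps are not particular to Slc5a8. Slc16a1 overlaps the long noncoding RNA genes Gm43581 and Gm43585 on its own strand, with 0% of its windows found in another gene. Abcg2 and Ffar2 overlap Gm35077 and Gm72796, respectively, on the opposite strand.

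Slc16a1, the proton-coupled carrier, did not pass in the fit over all libraries. Its normalised counts were 4007, 6229, 4261, 2843, and 3048 on 0% RPS. They were 4792, 4362, 4192, 4422, and 3996 on 2% RPS and 4008, 4021, 3418, 4434, and 4240 on 5% RPS. On 10% RPS they were 6217, 3844, 5558, 3765, and 5210. The controls spanned all other libraries, because 0% RPS replicate 2 held the highest Slc16a1 of the study. The coefficient of variation was 33.0% on 0% RPS, 6.81% on 2% RPS, 9.48% on 5% RPS, and 22.0% on 10% RPS, so the diets at both ends were the most variable.

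The Slc16a1 mean was 4078 ± 1346 (SD, n = 5) on 0% RPS, 4353 ± 296 on 2% RPS, 4024 ± 382 on 5% RPS, and 4919 ± 1080 on 10% RPS. The log2 fold change was 0.09 (SE 0.17) at 2% RPS, -0.02 (SE 0.17) at 5% RPS, and 0.27 (SE 0.17, 95% interval -0.07 to 0.61) at 10% RPS (DESeq2 adjusted p = 0.381, edgeR adjusted p = 0.405). The slope was 0.024 (SE 0.016) per 1% RPS (adjusted p = 0.432). With single libraries left out, the value at 10% RPS ranged from 0.16 (without 0% RPS replicate 4) to 0.47, with 0.17 without 10% RPS replicate 1, and it passed the test in 1 of these fits. Without 0% RPS replicate 2, Slc16a1 was higher at 10% RPS by 0.47 on the log2 scale (SE 0.14, DESeq2 adjusted p = 0.0205), while its slope of 0.037 did not pass (adjusted p = 0.0755). Without the 3 libraries outside the number run the value was 0.35 (SE 0.20, adjusted p = 0.411). With the epithelial score as covariate it was 0.09 (SE 0.19, adjusted p = 0.961).

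Bsg, which encodes the partner protein of MCT1, was the most abundant of the 5. Its normalised counts were 19254, 16158, 17468, 16933, and 16820 on 0% RPS. They were 18785, 18845, 19807, 17958, and 17806 on 2% RPS and 18260, 17871, 19209, 19100, and 20428 on 5% RPS. On 10% RPS they were 21541, 16733, 22113, 17851, and 20807. All libraries on 2 and 5% RPS and 4 of 5 on 10% RPS were above 4 of the 5 controls, and 10% RPS replicate 2 was the exception. The means were 17327 ± 1174, 18640 ± 804, 18974 ± 989, and 19809 ± 2377 (SD, n = 5 each) from 0 to 10% RPS.

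The log2 fold change of Bsg was 0.11 (SE 0.07) at 2% RPS, 0.13 (SE 0.07) at 5% RPS, and 0.19 (SE 0.07, 95% interval 0.05 to 0.34) at 10% RPS. The last had an unadjusted p of 0.0083 in DESeq2 and did not pass over all genes (adjusted p = 0.103, edgeR adjusted p = 0.184), nor did the slope of 0.017 per 1% RPS (adjusted p = 0.122). Bsg at 10% RPS passed without 10% RPS replicate 2 (0.25, adjusted p = 0.0103) and without 0% RPS replicate 1 (0.23, adjusted p = 0.0397). The slope passed without 10% RPS replicate 2 (0.023, adjusted p = 0.0096). Bsg had the narrowest interval of the 5 genes at 10% RPS.

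Abcg2, the efflux pump, overlapped between diets. Its normalised counts were 3922, 3022, 2748, 2364, and 2316 on 0% RPS and 2867, 2949, 3811, 3448, and 3019 on 2% RPS. They were 2778, 3370, 2536, 3328, and 2828 on 5% RPS and 4362, 3427, 3045, 2528, and 2844 on 10% RPS. On 10% RPS, replicate 1 alone exceeded the highest control. The log2 fold change was 0.16 at 2% RPS, 0.05 at 5% RPS, and 0.17 (SE 0.15, 95% interval -0.12 to 0.47) at 10% RPS (DESeq2 adjusted p = 0.545), and the slope was 0.012 per 1% RPS (adjusted p = 0.693). Of its 50-base windows, 1.25% occur in other genes.

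Ffar2, the receptor, was the least abundant of the 5. Its normalised counts were 707.6, 807, 541, 812, and 560 on 0% RPS and 759, 803, 663, 891, and 785 on 2% RPS. They were 945, 622, 642, 932, and 832 on 5% RPS and 640, 709, 911, 811, and 957 on 10% RPS. The ranges overlapped in every pair of diets, with 3 of 5 libraries on 5% RPS and 2 of 5 on 10% RPS above the highest control. The log2 fold change was 0.19 at 2% RPS, 0.21 at 5% RPS, and 0.23 (SE 0.15, 95% interval -0.06 to 0.53) at 10% RPS (DESeq2 adjusted p = 0.390), and the slope was 0.019 per 1% RPS (adjusted p = 0.478). Of its windows, 0.512% occur in other genes.

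**Figure D2:**
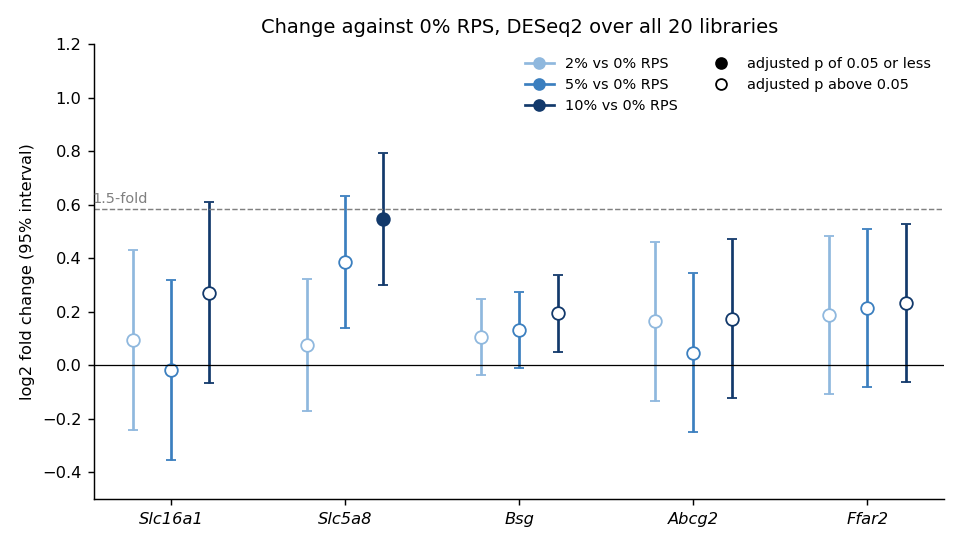
Log2 fold change against 0% RPS (vertical axis) of the 5 genes (horizontal axis) at 2, 5, and 10% RPS, with 95% intervals from DESeq2 over 20 libraries. The filled point, Slc5a8 at 10% RPS (0.55), is the only one past an adjusted p of 0.05, and it lies under the dashed line at a fold of 1.5.

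The intervals of Slc16a1, Abcg2, and Ffar2 at 10% RPS spanned 0 and do not exclude an increase. That of Bsg lay above 0 (0.05 to 0.34), though Bsg did not pass over all genes. The upper bounds on the log2 scale were 0.61 for Slc16a1, 0.34 for Bsg, 0.47 for Abcg2, and 0.53 for Ffar2, against the value of 0.55 for Slc5a8. Whether Slc5a8 rose more than the others was tested within libraries, by the log2 ratio of its normalised counts to theirs. From 0 to 10% RPS this ratio was higher by 0.26 against Slc16a1 (exact permutation test, two-sided, p = 0.222), 0.37 against Bsg (exact p = 0.0952), 0.38 against Abcg2 (exact p = 0.183), and 0.32 against Ffar2 (exact p = 0.111). After adjustment over the 5 ratios tested, p was 0.185 to 0.222 for these 4. Without the 3 libraries outside the number run, the differences were 0.04 against Slc16a1, 0.21 against Bsg, 0.08 against Abcg2, and 0.28 against Ffar2. With single libraries left out, the ratio to Slc16a1 ranged from 0.15 (without 10% RPS replicate 4) to 0.40 (without 10% RPS replicate 1), that to Bsg from 0.30 to 0.51, that to Abcg2 from 0.24 (without 0% RPS replicate 1) to 0.55, and that to Ffar2 from 0.17 (without 0% RPS replicate 4) to 0.42, and no difference passed after adjustment over the 5 ratios. The rise of Slc5a8 was therefore not shown to differ from the changes of the other 4 genes.

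**Figure D3:**
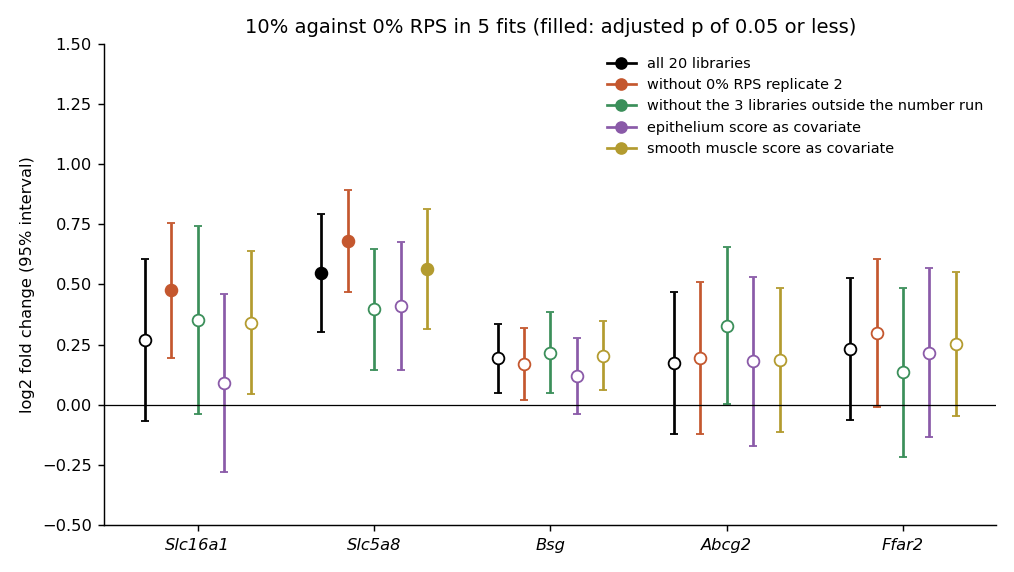
Log2 fold change at 10% against 0% RPS (vertical axis, 95% intervals) of each gene (horizontal axis) in the fit over 20 libraries and in 4 alternatives, with filled points past a DESeq2 adjusted p of 0.05. Slc5a8 is filled in 3 of the 5 fits and Slc16a1 in the fit without 0% RPS replicate 2, where its value is 0.47.

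Levels of different genes were compared per kilobase of annotated exon, over all 20 libraries. Bsg had 6729 ± 587 (SD) normalised counts per kilobase, Slc16a1 822 ± 170, Slc5a8 699 ± 145, Abcg2 323 ± 55.9, and Ffar2 212 ± 35.2. Bsg, at 5818 or more in every library, was far above the carrier it partners. The ranges of Slc16a1 (538 to 1178) and Slc5a8 (454 to 1069) over all libraries overlapped widely. Within libraries on 0% RPS, however, the log2 ratio of Slc5a8 to Slc16a1 normalised counts was -0.56 to -0.10, so Slc5a8 was lower in each. On 10% RPS this ratio was -0.65 to 0.34. Abcg2 (243 to 458) reached above the Slc5a8 level of 1 library (0% RPS replicate 4, 454) and overlapped Ffar2 (150 to 265). On this scale, 99.2% of the 12682 genes with an annotated length had a lower level than Bsg, 91.0% than Slc16a1, 89.1% than Slc5a8, 76.0% than Abcg2, and 65.6% than Ffar2. With the longest transcript as length in place of all exons, the order of the 5 was the same, but Bsg was at 10330 and Abcg2 at 514, and Abcg2, at 387 or more with an SD of 88.9, then overlapped Slc5a8 (454 to 1069) widely.

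**Figure D4:**
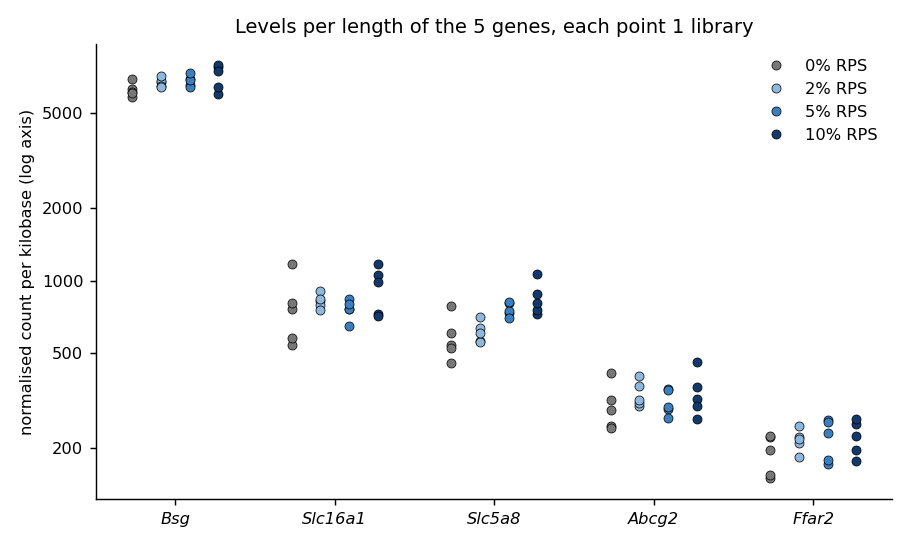
Normalised counts per kilobase of exon (vertical axis, log scale) of the 5 genes (horizontal axis), each point 1 library, by diet. Bsg lies between 5818 and 7963, and the points of Slc16a1 and Slc5a8 share most of their range.

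The 5 genes were also compared in pairs over the 20 libraries. Of the 10 pairs, none passed after adjustment over the pairs, on Pearson or Spearman correlation of log2 normalised counts. The highest was Slc16a1 with Abcg2 (Pearson r = 0.54, permutation p = 0.0154, adjusted p = 0.127; Spearman rho = 0.47, permutation p = 0.0379, adjusted p = 0.307), where r without the 2 libraries farthest from the Slc16a1 median was 0.52. Slc16a1 with its partner Bsg had r = 0.47 (permutation p = 0.0381, adjusted p = 0.127) and rho = 0.43 (permutation p = 0.0615, adjusted p = 0.307), and r = 0.75 without the farthest libraries, 0% RPS replicates 2 and 4. After subtraction of diet means, r was 0.38 for Slc16a1 with Bsg (adjusted p = 0.332) and 0.49 for Slc16a1 with Abcg2 (adjusted p = 0.194). Without 0% RPS replicate 2 alone, both pairs passed: r = 0.77 (permutation p = 0.00012, adjusted p = 0.0012) for Slc16a1 with Bsg and r = 0.60 (permutation p = 0.00643, adjusted p = 0.0321) for Slc16a1 with Abcg2, over 19 libraries. In that library Slc16a1 was the highest and Bsg the lowest of the 20.

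The genes whose levels were most like each of the 5 over the 20 libraries were searched among the 11969 genes that averaged 50 or more normalised counts, and are given as a description, since all points share libraries and diets. For Slc5a8 they were Duox2, which makes hydrogen peroxide at the epithelial surface (Pearson r = 0.88), Ufm1, a ubiquitin-like modifier (r = 0.87), and Litaf (r = 0.87). For Slc16a1 they were Eeig2 (r = 0.88), B4galt6 (r = 0.87), and Tmbim1 (r = 0.87). For Bsg they were Rtn3, a protein of the endoplasmic reticulum (r = 0.90), Mettl26 (r = 0.89), and Gstk1 (r = 0.89). For Abcg2 they were Arl4a (r = 0.92), Tmc7 (r = 0.87), and Arhgef5 (r = 0.86), and for Ffar2 they were Cbs, an enzyme of homocysteine metabolism (r = 0.83), Ergic1 (r = 0.80), and Ovol2 (r = 0.77).

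A further 7 lists of related genes were set beside the 5: 52 of their 69 genes were measured here, and the others were not analysed here. Of 8 other monocarboxylate carriers and anion exchangers measured, none passed the adjusted p in DESeq2 or edgeR in any comparison with 0% RPS or in the slope, and their median log2 fold change at 10% RPS was -0.04, beside 0 for all genes. An unadjusted p under 0.05 was found for 1 of 8 at each amount of RPS in DESeq2, and for 1, 1, and 0 of 8 at 2, 5, and 10% RPS in edgeR. The share of all genes at this unadjusted p was 8.7%, 16.6%, and 18.8% at 2, 5, and 10% RPS in DESeq2. In edgeR it was 8.09%, 15.9%, and 18%. Slc26a3, the chloride-bicarbonate exchanger of the colon surface, had the largest difference of this list, -0.43 (SE 0.27, adjusted p = 0.385) at 10% RPS. Its level in 0% RPS replicate 2 was 12364 normalised counts against 3595 to 5957 in the other controls, and without that library the difference was -0.03.

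Of 5 other ABC efflux pumps measured, none passed in DESeq2 or edgeR and none had an unadjusted p under 0.05 against 0% RPS. Of all genes, 8.7%, 16.6%, and 18.8% were under this unadjusted p at 2, 5, and 10% RPS in DESeq2. In edgeR they were 8.09%, 15.9%, and 18%. With 5 genes this count is not read as a result about the list. Abcb1a, a pump of wide substrate range (P-glycoprotein), had the largest difference, -0.51 (SE 0.30, adjusted p = 0.343) at 10% RPS. It had 4964 normalised counts in 0% RPS replicate 2 and 18097 to 26355 in the other controls. Without that library Abcb1a was lower on the log2 scale at 5% RPS (-0.75, SE 0.15, DESeq2 adjusted p = 0.00079) and at 10% RPS (-0.75, SE 0.15, DESeq2 adjusted p = 0.00027). In the same fit Abcg2 at 10% RPS stayed at 0.19 (DESeq2 adjusted p = 0.501). The share of all genes past the adjusted p alone in that fit is not given here.

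Of 5 other receptors for fatty acids and metabolites measured, 1 rose: Ffar4 (GPR120), a receptor for long-chain fatty acids. Past the adjusted p were 4.69% of all genes at 10% RPS and 1.9% at 5% RPS in DESeq2, and 0.987% and 0.089% in edgeR. Its normalised counts were 759, 1034, 632, 409, and 313 on 0% RPS and 1493, 1572, 1156, 858, and 1829 on 10% RPS, with 4 of 5 of the latter above every control. On 5% RPS they were 1003, 1084, 1651, 1098, and 1253. The log2 fold change was 0.95 (SE 0.25, DESeq2 adjusted p = 0.0187, edgeR adjusted p = 0.124) at 5% RPS and 1.13 (SE 0.25, DESeq2 adjusted p = 0.0011, edgeR adjusted p = 0.0385) at 10% RPS, and the slope was 0.10 per 1% RPS (adjusted p = 0.0027). Ffar4 also passed at 10% RPS without 0% RPS replicate 2 (1.39) and without the 3 libraries (1.16), and did not with the epithelial score (0.91, adjusted p = 0.104). Ffar3, the other short-chain fatty acid receptor beside Ffar2, had a mean of 82.6 normalised counts and differed by -0.34 on the log2 scale (SE 0.22, adjusted p = 0.380) at 10% RPS.

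**Figure D5:**
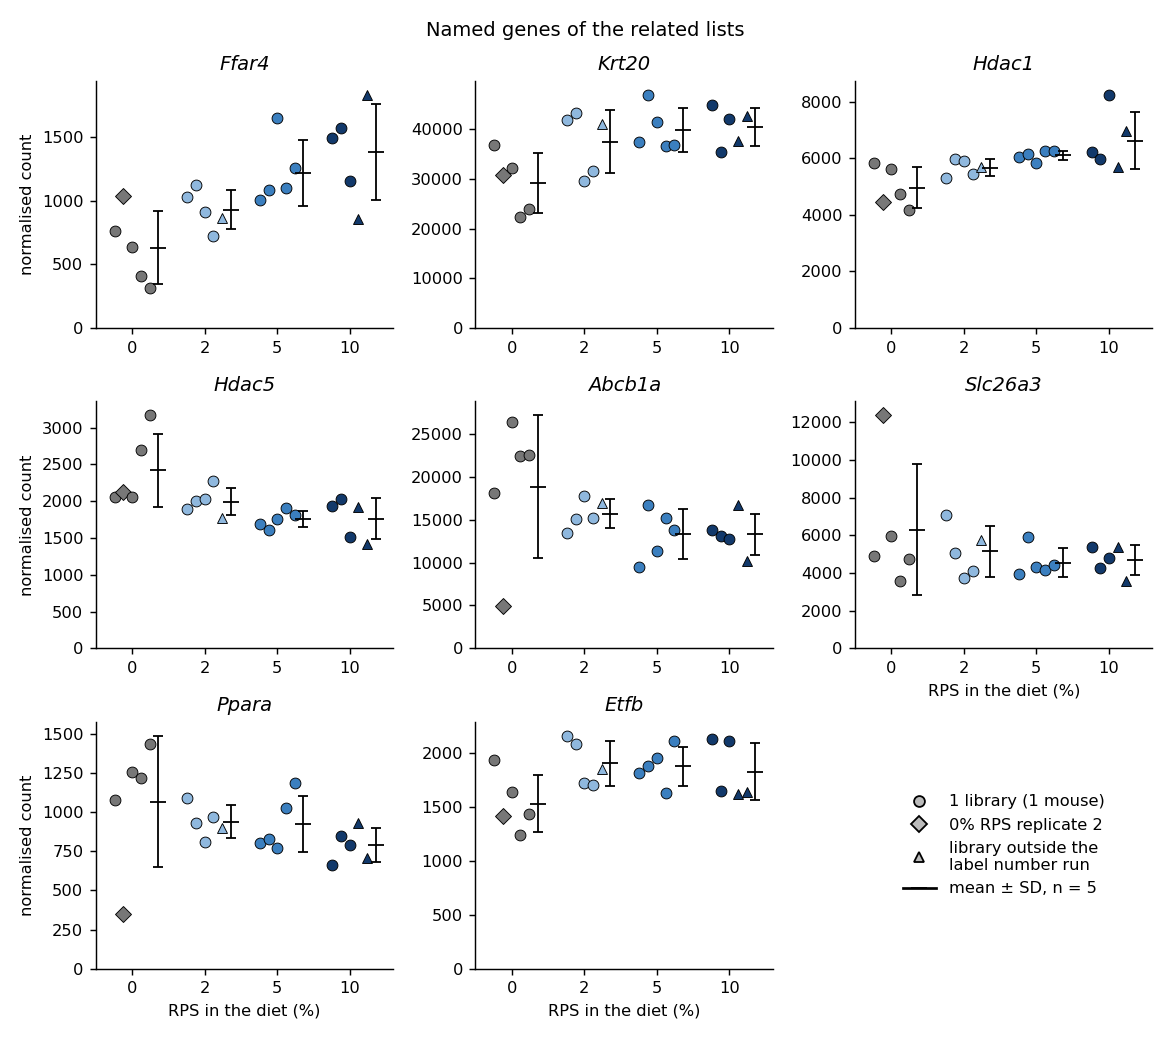
Normalised count (vertical axes, from 0) of the 8 named genes of the related lists in each library by percentage of RPS (horizontal axes), with mean and SD (n = 5). Ffar4 means go from 629 on 0% RPS to 1381 on 10% RPS, and 0% RPS replicate 2 (diamond) is apart from its diet in Abcb1a, Slc26a3, and Ppara.

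The genes that use butyrate inside the cell did not pass. All 15 genes of butyrate activation, mitochondrial oxidation, and ketone body metabolism were measured, and none passed in DESeq2 or edgeR in a comparison with 0% RPS or in the slope. In DESeq2, 2 of 15 at 2% RPS, 5 of 15 at 5% RPS, and 4 of 15 at 10% RPS had an unadjusted p under 0.05, and in edgeR 2, 4, and 3 of 15. All genes gave 8.7%, 16.6%, and 18.8% in DESeq2 and 8.09%, 15.9%, and 18% in edgeR, so with 15 genes these counts are not read as a result about the list. Their median log2 fold change at 10% RPS was 0.05, with a range from -0.24 to 0.25. Etfb, which passes electrons from fatty acid oxidation to the respiratory chain, had the largest difference (0.25, SE 0.12, adjusted p = 0.213). Bdh1, a ketone body enzyme, was the nearest to the threshold (0.22, SE 0.08, adjusted p = 0.0727).

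Of 7 histone deacetylases measured, 2 passed in DESeq2 at 10% RPS, in opposite directions, beside 4.69% of all genes. Hdac1, a class I enzyme of the kind that butyrate inhibits, rose at 10% RPS by 0.42 on the log2 scale (SE 0.10, DESeq2 adjusted p = 0.0029, edgeR adjusted p = 0.0416), from 4966 ± 732 to 6632 ± 1016 normalised counts (SD, n = 5). Its 10% RPS libraries ranged from 5713 to 8243 and the controls from 4176 to 5841, and 4 of 5 exceeded every control. Hdac5, a class IIa enzyme, fell at 5% RPS (-0.46, SE 0.12, DESeq2 adjusted p = 0.0230, edgeR adjusted p = 0.117) and at 10% RPS (-0.46, SE 0.12, DESeq2 adjusted p = 0.0130, edgeR adjusted p = 0.0650). At 10% RPS without the 3 libraries, Hdac1 passed (0.46, SE 0.12, adjusted p = 0.0133) and Hdac5 did not (-0.41, SE 0.14, adjusted p = 0.106). With the epithelial score neither passed, with 0.32 (SE 0.11, adjusted p = 0.181) for Hdac1 and -0.26 (SE 0.12, adjusted p = 0.470) for Hdac5.

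Of 5 genes known to respond to butyrate in gut epithelium, 1 passed: Krt20, a keratin of mature colonocytes, which rose at 5% RPS (0.45, SE 0.13, DESeq2 adjusted p = 0.0476) and 10% RPS (0.47, SE 0.13, DESeq2 adjusted p = 0.0193) and not in edgeR (adjusted p = 0.146 and 0.0800). Past the adjusted p were 1.9% of all genes at 5% RPS and 4.69% at 10% RPS in DESeq2, and 0.089% and 0.987% in edgeR. The list median at 10% RPS was 0.01, with 3 of 5 genes higher, and Alpi was the lowest (-0.43, SE 0.24, DESeq2 adjusted p = 0.316). Without the 3 libraries Krt20 at 10% RPS did not pass (0.48, adjusted p = 0.104), nor with the epithelial score (0.23, adjusted p = 0.502). The cell cycle inhibitor Cdkn1a was at 0.00 on the log2 fold change scale (SE 0.11, adjusted p = 0.998) at 10% RPS. Of 7 regulators known for the carriers, pump, or receptor, none passed in DESeq2 or edgeR, with 1 of 7 at an unadjusted p under 0.05 at 10% RPS in both, beside the 18.8% and 18% of all genes. Ppara, a lipid-sensing nuclear receptor, had the largest difference (-0.44, SE 0.23, adjusted p = 0.291). It had 351 normalised counts in 0% RPS replicate 2 and 1078 to 1432 in the other controls. Without that library Ppara was lower at 10% RPS (-0.66, SE 0.13, DESeq2 adjusted p = 0.00017). The share of all genes past the adjusted p alone in that fit is not given here.

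Markers were measured for cell types that a colon segment can hold. These were epithelium, mature colonocytes, and goblet, enteroendocrine, and cycling cells, with macrophages, smooth muscle, endothelium, red blood cells, and B and plasma cells. At 10% RPS all but 3 of these markers did not pass in DESeq2, beside 4.69% of all genes that did. This count is not read as a result about cell types. The 3 were Epcam and Krt20, which were higher, and Insl5, an enteroendocrine hormone, which was lower (-1.61, SE 0.48, adjusted p = 0.0258). Insl5 averaged 73.9 normalised counts and was also lower, without passing, at 2% RPS (-1.17) and 5% RPS (-1.47). Its value without 0% RPS replicate 2 is not given here. The lists of Krt20 and Insl5 were mixed in sign, with a median of 0.16 and 4 of 6 genes higher for mature colonocytes, and a median of -0.05 and 2 of 5 higher for enteroendocrine cells. Among those that did not pass, Aqp8, a water channel, was at -0.93 and Chgb, a granule protein, at 0.31. Goblet cell markers, which were higher in 6 of 6 genes with a median of 0.48, summed to 444471 to 785413 normalised counts on 0% RPS and 559870 to 1043090 on 10% RPS. Macrophage markers summed to 1242 to 3066 and 1456 to 2060, and the 4 B and plasma cell markers measured to 2186 to 12028 and 2810 to 5485. The 6 neutrophil markers were not analysed here.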

How the data were processed

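Per the labels and the methods of the study, the authors sequenced stranded mRNA libraries as single-end reads, removed low-quality bases, and aligned and counted reads per gene with the CLC Genomics Workbench on GRCm39. The deposited values are raw whole-number counts, and the annotation, the use of strand, and the rule for reads with several matches are not given in the sources used here. Counts were tested with DESeq2 (version 1.42.0, R version 4.3.3) over all 20 libraries with diet as the only term, and with edgeR (version 4.0.16, TMM factors, quasi-likelihood test, 12366 genes kept). Adjusted p values are Benjamini-Hochberg values over all genes. Calls used an adjusted p no higher than 0.05, and a called gene counted as changed from a fold of 1.5. The tool and both thresholds are those of the study, whose methods do not give the model. The study states more mice per group than the 5 per diet used here, and other mice were not analysed here. The labels give 1 treatment per library, and replicates were numbered in accession order. GENCODE M39 held 12682 of 12701 gene identifiers. Correlations used log2(normalised count + 1) and 100000 permutations. The fits were tested on simulated data.

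Alternatives were edgeR, TMM factors, a low-count filter (10 counts in 5 libraries), independent or Cook filtering off, a fold of 2, only the diets compared, covariates (marker scores, 1 surrogate variable from sva version 3.50.0), and omission of libraries. The members and lists were chosen with earlier results of these data known. Named were the 5 genes, list genes past the adjusted p, from lists without one the gene with the largest difference at 10% RPS (mean of 50 or more normalised counts), and the 3 genes most like each of the 5. Cdkn1a, Alpi, Bdh1, Ffar3, Insl5, Epcam, Car1, Car4, Agr2, Aqp8, Chgb, Nfe2l2, Hoxa13, and Hoxd10 were named after their values were seen. The ratios within libraries, and the list counts without the libraries that stood apart, were added after the values were seen. The label numbers do not say whether mice shared a cage. If mice of a diet did, cage and diet could not be told apart here. The p values treat the mice as independent and measure the spread between these mice only. Python (version 3.11.15) with matplotlib (version 3.10.9) drew the plots, and pandas (version 2.3.3) handled tables.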

Additional observations from a re-analysis of the deposited data

Results flagged for a closer look

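In 52 groups of 5 libraries (the 5 genes and the 8 named list genes in each diet), a Dixon test at the 95% level marked 2, which is fewer than the 1 in 20 that chance gives. Both were in Slc26a3, the chloride-bicarbonate exchanger: 0% RPS replicate 2, with 12364 normalised counts, and 5% RPS replicate 2, with 5887, were far from the other 4 libraries of their diets. None of the 5 butyrate transport and sensing genes was marked in any diet.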

How the results depend on the processing

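No paired analysis was possible because no numbering of mice ties libraries of different diets together. The count of the 5 genes changed at 10% RPS (0 with all libraries) was 1 with 1 surrogate variable and 0 to 1 when each library was left out in turn; it was 1 (Slc5a8) without 0% RPS replicate 2, 10% RPS replicate 1, or 10% RPS replicate 2. The count past the adjusted p at 5% RPS (0) was 1 (Slc5a8) with the smooth muscle score, with 1 surrogate variable, and without the 3 libraries outside the number run, and 0 to 1 with single libraries left out. That at 10% RPS (1) was 0 with the epithelium score and 0 without the 3 libraries, and 1 to 2 with single libraries left out, Bsg passing without 0% RPS replicate 1 or 10% RPS replicate 2 and Slc16a1 without 0% RPS replicate 2. That of the slopes (1) was 1 to 2. The count of correlated pairs (0) was 0 to 2, with 2 only without 0% RPS replicate 2. Where no construction of the alternative gives the cause, the cause was not tested.

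Several log2 fold changes near 0 changed sign. With the epithelium score, Slc16a1 was -0.060 and Slc5a8 -0.047 at 2% RPS. Slc16a1 at 5% RPS was 0.12 with the smooth muscle score and 0.14 with 1 surrogate variable. With single libraries left out, Slc16a1 ranged from -0.011 to 0.30 at 2% RPS and from -0.12 to 0.19 at 5% RPS, Slc5a8 from -0.0013 to 0.21 at 2% RPS, and Abcg2 from -0.021 to 0.18 at 5% RPS, with a slope from -0.0014 to 0.020. For Slc5a8 with single libraries left out, the log2 fold change at 10% RPS ranged from 0.45 to 0.68 and the slope from 0.049 to 0.066, all past the adjusted p. On the rank of the diets in place of the percentage, its slope was 0.20 per step.

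In edgeR the receptor list had 0 genes past the adjusted p at 5% RPS, the histone deacetylases 0 at 5% RPS, 1 at 10% RPS, and 1 in the slope, and the butyrate-response list 0 at 5 and 0 at 10% RPS. Without the 3 libraries, the butyrate-response list had 0 at 5 and 0 at 10% RPS, the histone deacetylases 1 at 10% RPS and 1 in the slope, and the butyrate oxidation list 1 (Bdh1) at 10% RPS. Without 0% RPS replicate 2, the ABC pumps had 1 (Abcb1a) at 5 and 10% RPS and in the slope, and the regulators 1 at 5% RPS, 2 (Ppara and Nfe2l2) at 10% RPS, and 1 in the slope. For the fits without these libraries, the share of all genes past the adjusted p alone is not given here. Their list counts are therefore not read as results about the lists. The all-gene counts at both thresholds ranged most: at 10% RPS, 113 genes became 40 in edgeR, 67 without the 3 libraries, 22 with the epithelium score, and 201 without 0% RPS replicate 2. At 5% RPS, 55 became 7 in edgeR and 104 without 0% RPS replicate 2.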
